A study of Mus musculus with 36 samples.

Results

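The genes described here were 10 genes of the pluripotent state that encode RNA-binding proteins, secreted or surface-bound signalling proteins and a pair of other stem cell proteins. They were Lin28a, Lin28b, L1td1 and Trim71, which encode RNA-binding proteins, Nodal, Tdgf1, Lefty1 and Lefty2, which encode a ligand, its co-receptor and its inhibitors, and Utf1 and Tcl1, which encode a chromatin protein and a kinase co-activator. They were chosen by name, with earlier results of these data known, and each matched 1 of the 21442 genes in the table. Counts of them set beside shares of all genes are therefore a description only. mRNA of mouse cells was sequenced in 36 libraries, 3 for each combination of 6 stages and 2 genotypes, to ask how loss of Zfp266, a gene for a zinc finger protein, changes expression before, during and after reprogramming. Transgenic fibroblasts of both genotypes carried Cas9 and came from E12.5 chimeric embryos, made by aggregating transgenic ESCs with morulae, and the labels give the strain as 129. The wild-type (WT) MEFs had received a lentivirus with a non-targeting guide RNA and the knockout (KO) MEFs one with a Zfp266 guide RNA, 96 hours before harvest. At days 3, 5 and 7 of reprogramming the same pair of viruses had been used, and a doxycycline-inducible transgene for Oct4, Sox2, Klf4 and Myc had been switched on with 300 ng/ml doxycycline in medium with 10 ug/ml vitamin C. These cells had been diluted into ordinary 129 MEFs and cells with the transgene active were sorted out again, so a KO library of MEFs or of a reprogramming day was an edited population and not a clone. iPSCs were clones of single cells, sorted at day 15 for a Nanog-GFP reporter and grown without doxycycline in 1 ug/ml puromycin, and KO clones had been genotyped. WT ESCs were 3 samples of 1 parental line, clone J, and KO ESCs were 3 genotyped clones derived from it.

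LIN28A and LIN28B bind the precursors of let-7 microRNAs and keep them from maturing, and TRIM71 and L1TD1 are further RNA-binding proteins of early embryonic cells. NODAL is a TGF-beta family ligand that signals through activin receptors and SMAD2 and SMAD3. TDGF1, also called Cripto, is the surface co-receptor that Nodal needs, while LEFTY1 and LEFTY2 are secreted antagonists that Nodal signalling itself induces. UTF1 is a chromatin-associated protein of undifferentiated cells, and TCL1 binds AKT kinases and raises their activity. Most of these genes are silent in fibroblasts and on in ESCs.

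Sequences of let-7 and of its matches are shown because the Lin28 genes and Trim71 are also read by let-7. All 9 mature let-7 family members of the mouse in RefSeq (GRCm38.p6), miR-98 included, share the seed, bases 2 to 8, in capitals below for 1 of them.
mmu-let-7a-5p: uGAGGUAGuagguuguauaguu
The exact complement of this seed was searched on the sense strand of the longest annotated 3′ UTR of each gene (GENCODE M21, GRCm38). It was found in Lin28a (2 matches), Lin28b (4 matches) and Trim71 (4 matches), and in none of the other 7 genes, against 9.02% of 21045 genes with such a UTR. The UTRs differ in length, from 122 bases in Utf1 to 5512 in Trim71. The seed match, in capitals, is followed by an A in both Lin28a matches, 1 of Lin28b and all 4 of Trim71, which are the 7 shown here in 23-base windows.
Lin28a chr4:134005189-134005211, minus strand: gcacagcctgttgaaCTACCTCa
Lin28a chr4:134004551-134004573, minus strand: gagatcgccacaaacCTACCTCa
Lin28b chr10:45381022-45381044, minus strand: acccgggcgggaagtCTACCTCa
Trim71 chr9:114512472-114512494, minus strand: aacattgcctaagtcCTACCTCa
Trim71 chr9:114512376-114512398, minus strand: agtgataatttctatCTACCTCa
Trim71 chr9:114509047-114509069, minus strand: tttagtatggattttCTACCTCa
Trim71 chr9:114509021-114509043, minus strand: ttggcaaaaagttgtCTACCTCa
Mature microRNAs were not measured in these libraries, so a match is a description only.

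Promoters are shown for the 4 genes that later passed both the FDR and the fold threshold at day 7, Utf1, Tcl1, Tdgf1 and Nodal (RefSeq, GRCm38.p6, from 250 bases before to 50 after the start of the gene). Capitals mark matches on either strand to a GC box, GGGCGG.
Utf1 chr7:139943606-139943905, plus strand: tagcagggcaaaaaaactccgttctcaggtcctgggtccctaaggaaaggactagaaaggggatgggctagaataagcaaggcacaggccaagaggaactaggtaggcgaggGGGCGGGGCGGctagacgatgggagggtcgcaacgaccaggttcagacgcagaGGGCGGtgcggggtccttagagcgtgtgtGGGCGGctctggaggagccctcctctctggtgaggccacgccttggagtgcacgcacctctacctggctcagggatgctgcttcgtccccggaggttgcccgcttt
Tcl1 chr12:105222688-105222987, minus strand: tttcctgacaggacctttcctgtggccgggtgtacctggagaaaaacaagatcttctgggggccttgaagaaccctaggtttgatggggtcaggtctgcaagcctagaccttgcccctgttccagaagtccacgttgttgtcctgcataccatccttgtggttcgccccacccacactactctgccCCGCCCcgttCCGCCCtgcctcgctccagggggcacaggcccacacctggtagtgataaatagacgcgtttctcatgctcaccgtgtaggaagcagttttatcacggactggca
Tdgf1 chr9:110946109-110946408, minus strand: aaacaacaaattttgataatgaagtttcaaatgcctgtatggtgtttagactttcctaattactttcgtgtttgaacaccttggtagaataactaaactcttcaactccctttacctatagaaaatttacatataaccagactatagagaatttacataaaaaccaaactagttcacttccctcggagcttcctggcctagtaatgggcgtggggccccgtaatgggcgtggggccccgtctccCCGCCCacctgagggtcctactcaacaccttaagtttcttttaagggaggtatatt
Nodal chr10:61417722-61418021, plus strand: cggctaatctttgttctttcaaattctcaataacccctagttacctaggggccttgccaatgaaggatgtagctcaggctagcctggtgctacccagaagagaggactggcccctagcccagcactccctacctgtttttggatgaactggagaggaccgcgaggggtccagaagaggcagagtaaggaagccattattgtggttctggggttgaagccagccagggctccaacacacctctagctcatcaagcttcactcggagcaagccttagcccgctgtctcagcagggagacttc
Utf1 held 4 GC boxes, a pair of which overlap by 1 base, Tcl1 held 2, Tdgf1 held 1 and Nodal none, and 35.7% of 32851 promoters of this length hold at least 1. The other motifs searched on both strands were an octamer (ATTTGCAT, in 1.74% of all promoters), a SOX motif (CATTGT, 12.6%), a KLF motif (CCACACCC, 3.56%) and a TATA box (TATAAA, 13.6%). None of these stood in the 4 promoters printed, and among the 8 of the 10 genes with a promoter entry the SOX motif stood once, in Lin28a, 96 bases before the start. The observed over expected ratio of CpG was 0.615 in Utf1, 0.462 in Tcl1, 0.545 in Tdgf1 and 0.229 in Nodal, against a median of 0.384 over all promoters. No match in such a window says only that these letters are not in it.

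Total counts ran from 19224103 to 39610939 per library, and values below are normalised counts, that is, counts divided by a size factor per library. Where no read was counted, up to 3 remain possible (95% confidence), so the floor of a library lay between 2.31 and 5.22 normalised counts, for counting error only. Zfp266 transcript was present in all 36 libraries, with group means from 1422 to 3200. The KO mean was above the WT mean in MEFs and at days 3, 5 and 7 and below it in iPSCs (2019 ± 170 against 2647 ± 151) and ESCs (2127 ± 138 against 2363 ± 110). An edited gene can keep its transcript count, so this neither checks nor goes against the labels. The summed level of 12 fibroblast markers was 473242 to 490405 in WT MEFs and 202 to 217 in WT ESCs, and that of 12 pluripotency markers was 62.1 to 72.2 and 142754 to 145266 respectively. A gene was called changed at a Benjamini-Hochberg FDR below 0.05 (DESeq2), and a DEG is a called gene with a log2 fold change (log2FC) beyond 1 in either direction. The FDR covers the genes left by the default filters of DESeq2 for low counts and outliers. Shares and medians of all genes are those of the genes with an FDR, from 12708 to 21436 by comparison. The labels do not say that replicates of MEFs and reprogramming came from separate embryos, so the p-values measure the spread between these samples.

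In WT cells the 10 genes came on at different times (plot of levels by stage). From MEFs to day 3, 7 of 10 genes rose and none fell, against 33.8% of all genes that rose and 37.1% that fell. Lin28a had no read in any WT MEF library and 5128, 4706 and 4474 normalised counts at day 3, at least 1105-fold above a floor of 4.32. L1td1 went from 5.22, 9.09 and 15.9 to 3815, 4055 and 3699, a log2FC of 8.46 (SE 0.31, FDR 1.45e-164). The gap between MEFs and day 3 in both genes was far wider than the spread of the replicates. Lin28b rose from 31.3, 66.6 and 36.1 to 1536, 1271 and 1170 (log2FC 4.9, SE 0.23, FDR 1.88e-103). Trim71, which MEFs already had at 397, 401 and 337, rose to 1925, 1803 and 1668 (log2FC 2.26, SE 0.11, FDR 1.94e-96). All 4 RNA-binding genes had therefore risen by day 3, as had Lefty2 and Utf1, when no WT library held more than 2.91 normalised counts of Nodal or 3.88 of Tcl1. L1td1 and Trim71 then stood at 18.6% and 17.4% of their WT ESC means, and Lefty2 at 12.6%.

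**Figure D1:**
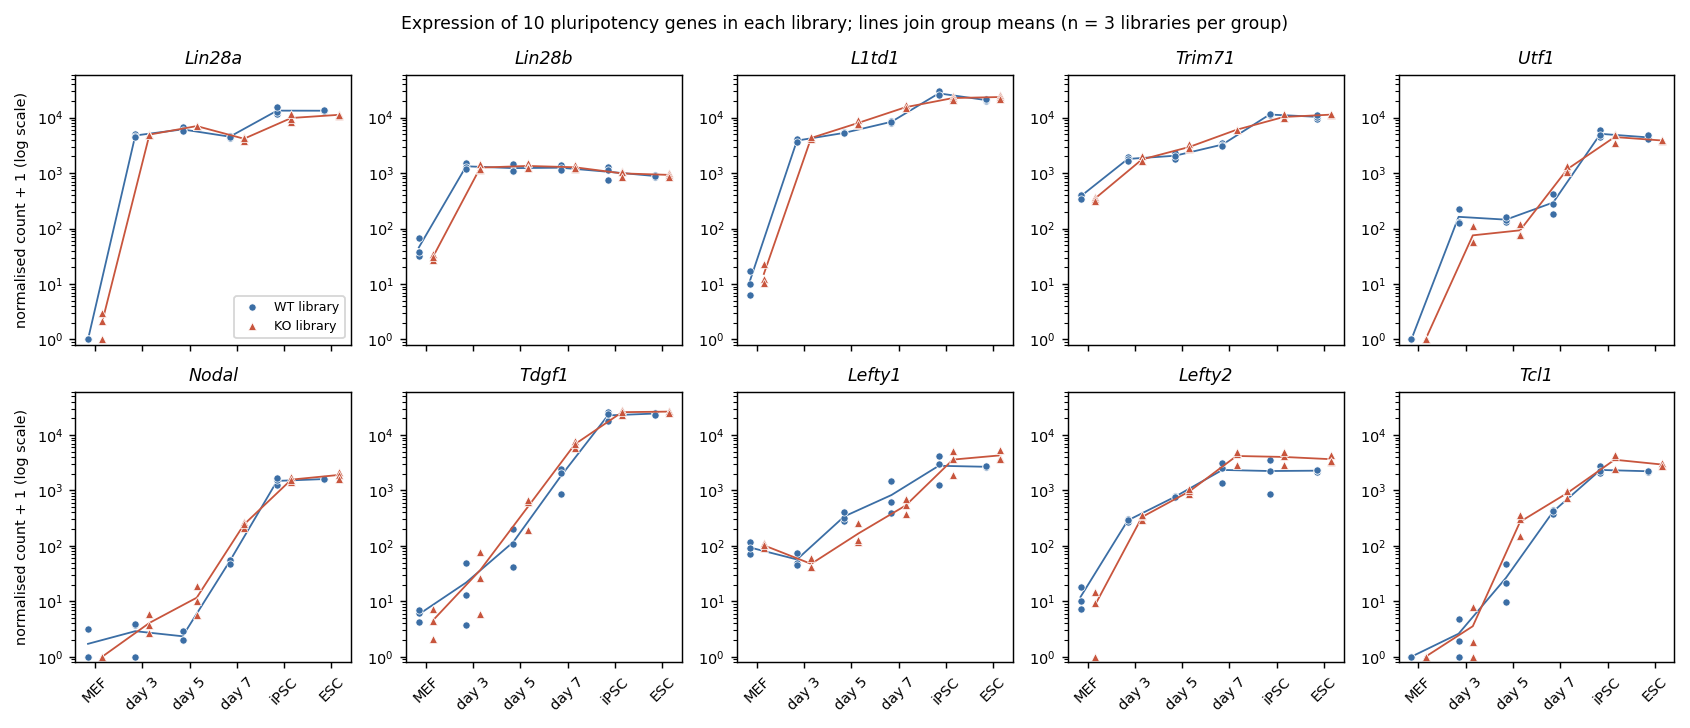
Normalised counts plus 1 (log scale) of each gene in the 36 libraries by stage, with circles for WT libraries, triangles for KO libraries and lines through the group means (n = 3). Lin28a, Lin28b and L1td1 jump between MEFs and day 3, whereas Nodal, Tdgf1 and Tcl1 climb from day 5 to iPSCs.

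The RNA-binding genes then parted. Lin28b stayed between 1095 and 1536 in the 9 WT libraries of days 3, 5 and 7, and it was not called in any later WT step, ending at 909, 857 and 885 in WT ESCs. Its mean at day 3 was 150% ± 21.4 (SD of the day 3 libraries, n = 3) of the WT ESC mean, which was taken as fixed. Lin28a, the other let-7 blocker, was at 35.7% ± 2.49 of its WT ESC mean at day 3, reached 46.0% ± 3.49 at day 5 and was lower again at day 7, at 34.0% ± 1.31. That fall, from 6662, 6009 and 5761 to 4723, 4377 and 4510, was the 1 decrease among the 9 of 10 genes called between days 5 and 7 (log2FC -0.44, SE 0.11, FDR 5.27e-04), where 10.7% of all genes fell and 13.5% rose. Between day 7 and iPSCs Lin28a rose to 11481, 12834 and 15856 (log2FC 1.56, SE 0.11, FDR 2.33e-47). The ratio of Lin28a to Lin28b, per kb of exon, went from 8.22 ± 0.573 at day 3 to 34.3 ± 1.14 in WT ESCs. L1td1 took another course and rose at each WT step up to iPSCs, where it had 27219, 29705 and 25452. Trim71 did the same from day 5 on, to 11375, 11103 and 11688, while between days 3 and 5 its log2FC was 0.19 (FDR 0.133).

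The Nodal group came on in a staggered order. Lefty2, an antagonist of Nodal, was the early one of the 4, rising from 17.4, 9.09 and 6.37 in WT MEFs to 264, 304 and 292 at day 3 (log2FC 4.78, SE 0.48, FDR 6.77e-23). At day 7 it had reached 1365, 2543 and 3109, already 103% ± 39.2 of its WT ESC mean, and WT iPSCs with 3561, 863 and 2283 overlapped it. Lefty1 lies on the same strand of chromosome 1, 35918 bases away from Lefty2, and behaved otherwise. It was present in MEFs at 117, 69.7 and 91.3, was at 48.6, 45 and 73.7 at day 3 and rose by log2FC 2.6 (SE 0.43, FDR 3.89e-08) to 277, 322 and 415 at day 5. The call of its further rise to 387, 617 and 1469 at day 7 (log2FC 1.29, FDR 0.0118) was lost without day 7 WT replicate 3 (log2FC 0.57, FDR 0.379) or without day 5 WT replicate 1 (FDR 0.0632). Lefty1 and Lefty2 are near copies, and 11.7% of the 75-base windows of Lefty1 transcripts also occur in Lefty2.

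Tdgf1, the co-receptor, had 5.22, 6.06 and 3.18 in WT MEFs, 2.75, 12 and 47.5 at day 3 and 39.8, 107 and 203 at day 5, so that neighbouring groups overlapped. Its call at day 3 (log2FC 2.13, FDR 0.0174) was lost without day 3 WT replicate 3 (log2FC 0.64, FDR 0.551), without MEF WT replicate 3 (FDR 0.0564) and with edgeR (FDR 0.164). At day 7 it rose, to 873, 2466 and 2038 (log2FC 3.94, SE 0.69, FDR 4.43e-07), and in WT iPSCs it reached 18207, 25584 and 23824. Replicate 1 was the lowest of the 3 Tdgf1 values at days 3, 5 and 7 in both genotypes. Nodal itself was the last to come on. WT libraries held at most 2.91 normalised counts of it up to day 5, 54.8, 55.4 and 46.3 at day 7 and 1228, 1542 and 1675 in iPSCs (log2FC 4.83 from day 7, SE 0.18, FDR 4.78e-152). At day 3 the antagonist Lefty2 thus had 264 to 304 normalised counts in WT cells, while the ligand had at most 2.91.

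Utf1 and Tcl1 followed different courses too. Utf1 was listed at 0 in all MEF libraries, rose to 132, 126 and 227 at day 3, at least 37.5-fold above the floor, and then stayed low, with 130, 143 and 158 at day 5 and 180, 420 and 281 at day 7. Its main rise came between day 7 and WT iPSCs, at 4439, 6053 and 4839 (log2FC 4.12, SE 0.25, FDR 1.23e-57). The rise from day 5 to day 7 (log2FC 1.03, FDR 0.00103) rested on day 7 WT replicate 2, without which the log2FC was 0.68 (FDR 0.06). Tcl1 was at 8.74, 46.4 and 20.8 at day 5, 371, 442 and 431 at day 7 (log2FC 4.04, SE 0.35, FDR 1.07e-28) and 2763, 2018 and 2231 in WT iPSCs. From day 3 to day 5, 6 of 10 genes rose and none fell, against 12.4% of all genes that rose and 12.7% that fell. From day 7 to iPSCs 8 of 10 rose and none fell, against 35.8% and 37.7% of all genes, Lin28b and Lefty2 being the exceptions.

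WT ESCs and WT iPSCs were close for these genes. The 1 call was L1td1, lower in ESCs at 19881, 20539 and 21841 (log2FC -0.4, SE 0.08, FDR 9.63e-04), where 2.11% of all genes were called lower. The groups did not overlap, but the call was lost with edgeR (FDR 0.0576) and when only these 6 libraries were fitted (FDR 0.0623). For the other 9 genes the ESC and iPSC libraries overlapped, as they did for most genes of the table. Groups did not overlap for 1 of the 10, against 14.8% of all genes. The iPSC clones were far more spread out for the Lefty genes, from 1265 to 4092 for Lefty1 and from 863 to 3561 for Lefty2, than the 3 samples of the parental ESC line (2612 to 2773 and 2178 to 2317).

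Set against each other per kb of exon in WT ESCs, Tdgf1 was the most abundant with 9282 normalised counts per kb, followed by L1td1 with 6539, Utf1 with 3598, Lin28a with 3339 and Lefty1 with 1517. Tcl1 (1200), Trim71 (1110), Lefty2 (868) and Nodal (764) followed, and Lin28b was last with 97.5. Utf1 and Lin28a overlapped in this order, as did Tcl1 and Trim71, and the other neighbours did not. At day 3 in WT cells the order was another one: L1td1 (1215) and Lin28a (1194) overlapped at the top, Trim71 had 193, Lin28b had 146 and Tdgf1 had 7.91. Lin28b was thus the least abundant of the 10 in ESCs but the fourth at day 3, where it overlapped Utf1 (132) as the next one.

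To ask when loss of Zfp266 alters these genes, KO libraries were set against the WT libraries of the same stage (plot of log2FC by stage). In MEFs none of the 10 was called by DESeq2, against 0.0428% of all genes. At an unadjusted p below 0.05 there was 1, Lin28b, with 26.4, 33.6 and 29.7 in KO and 31.3, 66.6 and 36.1 in WT (log2FC -0.57, FDR 0.605), and edgeR called none. At day 3 the 1 call was Utf1, lower in KO, where 0.119% of all genes were called lower. KO libraries had 55.9, 57.3 and 110 and WT libraries 132, 126 and 227, without overlap (log2FC -1.13, SE 0.27, FDR 0.0114). This call was lost with edgeR (FDR 0.215) and without day 3 WT replicate 3 (FDR 0.531), KO replicate 1 (FDR 0.213) or KO replicate 2 (FDR 0.244), with log2FC between -1.51 and -0.8 whichever library was left out. L1td1 was higher in each KO library at day 3 (4223, 4151 and 4527, against 3815, 4055 and 3699) but not called (log2FC 0.16, FDR 0.849). Groups did not overlap for 2 of the 10 genes, against 16.2% of all genes.

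**Figure D2:**
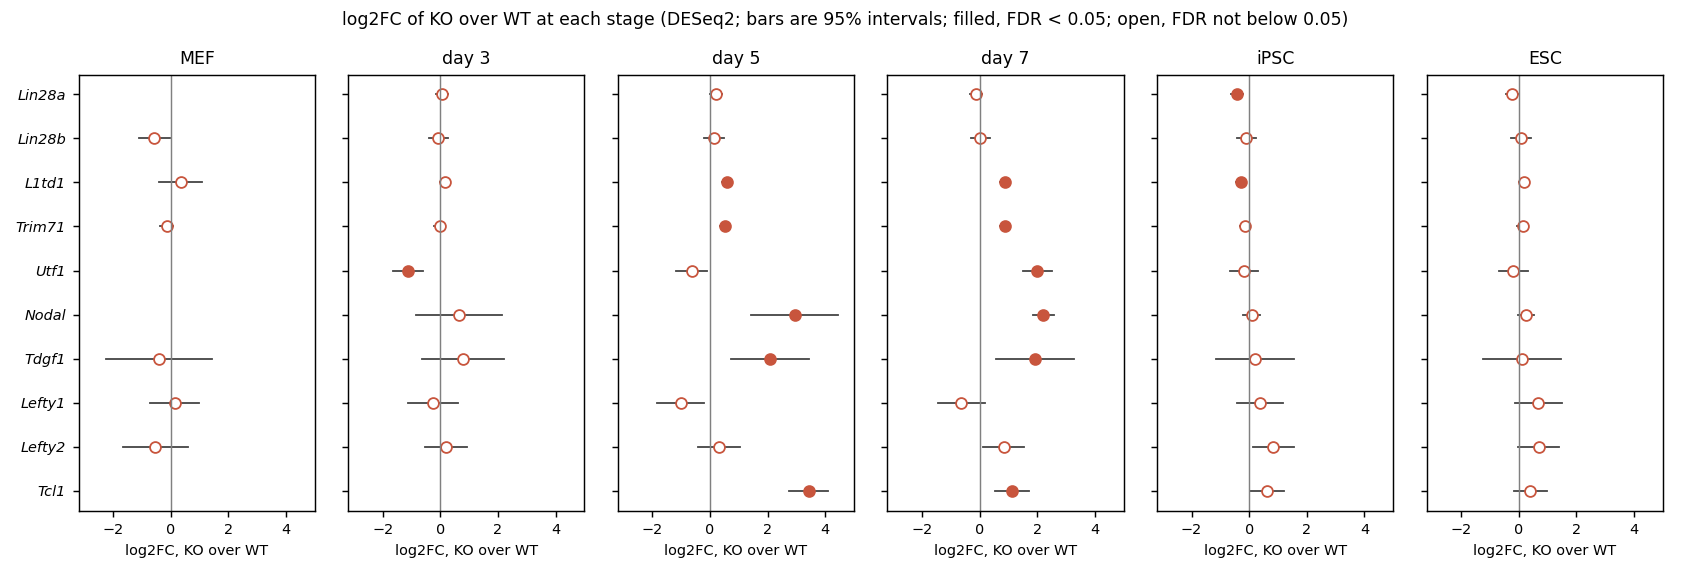
log2FC of KO over WT (x axis) for each gene (y axis) in 6 panels, 1 per stage, from DESeq2, with bars for the 95% interval and filled points for FDR below 0.05. Genes at or below the count floor in both groups are left out, and the filled points to the right of 0 stand at days 5 and 7 alone.

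At day 5 KO cells had more Tcl1, Nodal, Tdgf1, L1td1 and Trim71 transcript. Of the 10, these 5 were called higher and none lower, against 4.72% and 2.43% of all genes, and 3 of them were DEGs, against 1.19%. The median log2FC of the 10 was 0.42, and of all genes -0.01. Tcl1 had 152, 307 and 353 in KO and 8.74, 46.4 and 20.8 in WT (log2FC 3.43, SE 0.35, FDR 7.33e-20). Nodal had 4.77, 17.8 and 9.25 in KO against 1.94, 1.03 and 1.04 in WT (log2FC 2.94, SE 0.78, FDR 0.00483). These Nodal counts are small, the WT ones below the floor, and the call was lost without day 5 KO replicate 2 (log2FC 2.42, FDR 0.0664). Tdgf1 had 193, 624 and 670 in KO and 39.8, 107 and 203 in WT, so the groups overlapped. Each KO value of Tdgf1 was above the WT value of the same number, though the labels do not say that numbers mark shared cultures. The log2FC of Tdgf1 was 2.09 (SE 0.69, FDR 0.0401). Its call was lost without WT replicate 1 or 2 or KO replicate 2 or 3 (FDR 0.112, 0.125, 0.114 and 0.117) and in the fit of these 6 libraries alone (FDR 0.053).

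The RNA-binding genes moved less at day 5. L1td1 had 7292, 9056 and 7818 in KO against 5458, 5185 and 5307 in WT (log2FC 0.6, SE 0.09, FDR 9.02e-10). Trim71 had 2753, 3285 and 2835 against 2279, 1832 and 2058 (log2FC 0.52, SE 0.1, FDR 5.18e-06). Both calls held in every fit that left out 1 library. Lin28a, with 7111, 7061 and 6979 against 6662, 6009 and 5761, did not overlap but was not called (log2FC 0.2, 95% interval -0.01 to 0.41, FDR 0.312). Lin28b overlapped (log2FC 0.13, interval -0.2 to 0.47). Groups did not overlap for 8 of the 10 genes, against 32.3% of all genes, and in 2 of these, Utf1 and Lefty1, KO was the lower side. Utf1 had 80.1, 75.5 and 120 in KO and 130, 143 and 158 in WT (log2FC -0.64, FDR 0.153), and Lefty1 had 115, 125 and 258 in KO and 277, 322 and 415 in WT (log2FC -1.02, FDR 0.129). Neither passed the threshold, although Lefty1 did without day 5 KO replicate 3 (log2FC -1.49, FDR 0.0325). In the fit of these 6 libraries alone Utf1 (FDR 0.0327), Lin28a (FDR 0.0128) and Lefty2 (FDR 0.00783) were called. Markers moved as well at day 5, where 10 of 12 pluripotency markers were called higher in KO, with a sum of 12066 to 14623 against 10177 to 10206 in WT, and 2 of 12 fibroblast markers lower, with a sum of 31149 to 36636 against 38915 to 50186. Dppa3 was the 1 marker of these lists listed at 0, in WT, and the part of the markers in the result was not tested.

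At day 7, 6 of 10 genes were higher in KO and none was lower, against 13.3% and 16.1% of all genes, and 4 were DEGs, against 8.37%. The median log2FC of the 10 was 0.88, and of all genes -0.04. Nodal had 210, 267 and 248 in KO and 54.8, 55.4 and 46.3 in WT, a log2FC of 2.21 (SE 0.19, FDR 7.74e-29) with no overlap. Utf1, which had been lower in KO at day 3, had 1126, 1353 and 1053 in KO and 180, 420 and 281 in WT (log2FC 2.0, SE 0.26, FDR 3.61e-13). Tdgf1 had 5714, 7647 and 7012 in KO against 873, 2466 and 2038 (log2FC 1.92, SE 0.69, FDR 0.0219). Tcl1 had 731, 980 and 979 against 371, 442 and 431 (log2FC 1.11, SE 0.3, FDR 0.00163). All 4 had every KO library above every WT library. Groups did not overlap for 6 of the 10 genes, against 47.4% of all genes. The Tdgf1 and Tcl1 calls were nevertheless lost without day 7 WT replicate 1 (FDR 0.0651 and 0.0564), KO replicate 2 (FDR 0.0769 and 0.0584) or KO replicate 3 (FDR 0.0588 and 0.0529), while the Nodal and Utf1 calls held in each of the 6 fits.

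L1td1 had 14747, 16667 and 14953 at day 7 in KO and 8143, 8682 and 8447 in WT (log2FC 0.88, SE 0.09, FDR 2.40e-22). Trim71 was very even in KO, at 6040, 6044 and 6048, against 3476, 3247 and 3079 (log2FC 0.89, SE 0.09, FDR 1.04e-18). By contrast the KO and WT libraries of both Lin28 genes overlapped. For Lin28a they had 3748, 4394 and 4358 and 4723, 4377 and 4510 (log2FC -0.12, interval -0.33 to 0.09), and for Lin28b 1426, 1171 and 1223 and 1382, 1232 and 1138 (log2FC 0.03, interval -0.31 to 0.36). Lefty2 had 2906, 4625 and 4995 in KO and 1365, 2543 and 3109 in WT (log2FC 0.84, SE 0.36, FDR 0.069). It was called with edgeR (FDR 0.0319) and without day 7 WT replicate 3 (FDR 0.0146) or KO replicate 1 (FDR 0.0195). The groups overlapped, although each KO library was above the WT library of the same number. The labels do not say that a number marks a shared culture. Lefty1 had 371, 542 and 687 in KO and 387, 617 and 1469 in WT (log2FC -0.63, FDR 0.269). These groups overlapped too, with each KO library below the WT library of the same number.

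**Figure D3:**
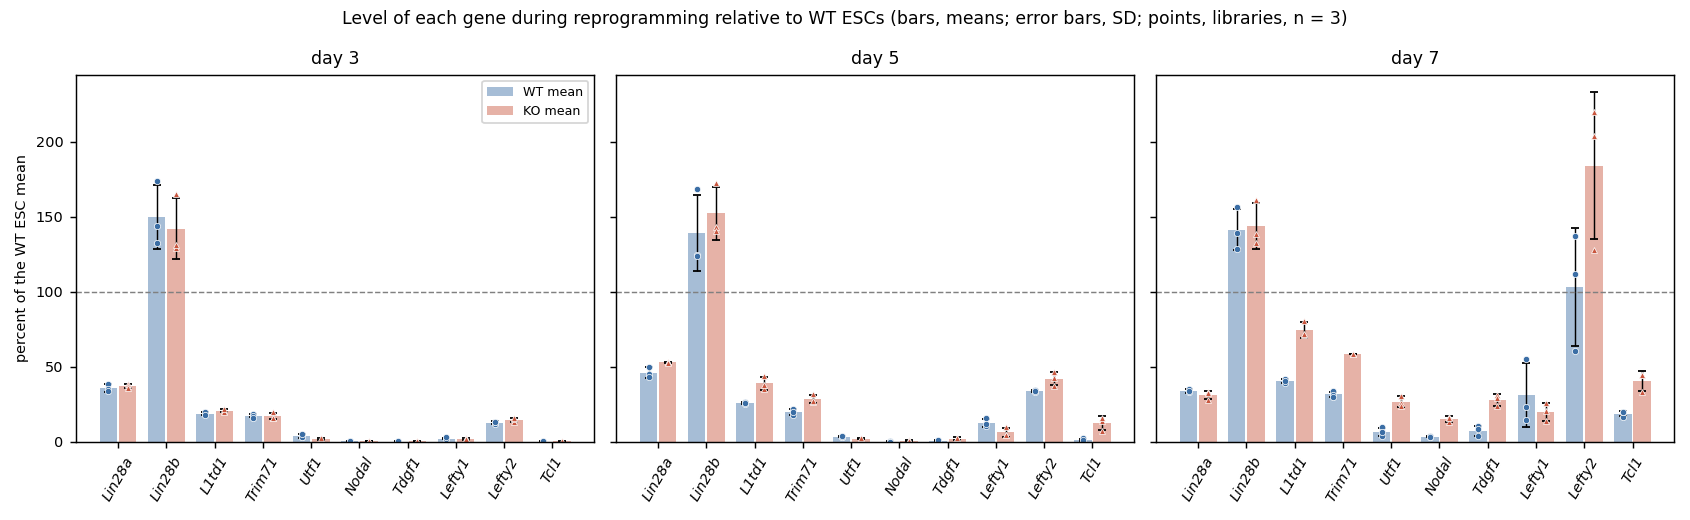
Level of each gene (x axis) at days 3, 5 and 7 as a percentage of its mean in WT ESCs (y axis), with bars for the means of WT and KO, SD as error bars and points for the 3 libraries. At day 7 L1td1 is at 40.6% in WT and 74.5% in KO, while Lin28a is at 34.0% and 31.2%.

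Levels at day 7 were also set against WT ESCs (plot of percentages). The genes called higher in KO come first, and as they were picked by that call, a larger percentage in KO was given in advance. Each SD here is that of the group itself over a fixed WT ESC mean, so the spread of the ESC libraries is left out. L1td1 stood at 74.5% ± 5.08 of the WT ESC mean in KO and 40.6% ± 1.3 in WT, and Trim71 at 58.3% ± 0.0424 and 31.5% ± 1.92. The WT ESC libraries held 9442, 10302 and 11343 normalised counts of Trim71. Tcl1 was at 40.5% ± 6.48 and 18.7% ± 1.72, Tdgf1 at 27.9% ± 4.05 and 7.36% ± 3.39, Utf1 at 26.7% ± 3.55 and 6.65% ± 2.73 and Nodal at 15.1% ± 1.82 and 3.26% ± 0.317 (n = 3 each). Nodal remained the furthest from its ESC level in both genotypes. The genes that were not called had no common direction. Lin28a was at 31.2% ± 2.72 in KO and 34.0% ± 1.31 in WT, and Lin28b at 144% ± 15.2 and 142% ± 14.0. Lefty1 was at 20.0% ± 5.95 and 30.9% ± 21.4, and Lefty2 at 184% ± 49.2 and 103% ± 39.2. Other markers moved with these genes at day 7. The summed level of 12 pluripotency markers was 37813 to 47391 in KO and 15343 to 18789 in WT, with 12 of 12 called higher, and that of 12 fibroblast markers was 14948 to 30230 and 42070 to 50896, with 5 called lower and none higher. Of 5 mesendoderm markers 2 were called higher, Eomes (means 93.9 and 27.7, log2FC 1.76, SE 0.36, FDR 1.55e-05) and T (means 17.8 and 4.07, log2FC 2.14, SE 0.67, FDR 0.00722). Foxa2 (means 18.4 and 45.3, log2FC -1.3, FDR 0.0829) and Gsc (means 2.8 and 5.39, log2FC -0.96, FDR 0.361) were lower in KO but not called. Mixl1 was not called either (means 1.83 and 1.7, log2FC 0.12). The sum of the 5 was 106 to 151 in KO and 68.9 to 105 in WT, and their median log2FC was 0.12. None of the markers in these lists was at 0. In these bulk samples a larger share of cells with a gene on and more RNA per cell cannot be told apart, and the part of cell composition in the result was not tested.

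Changes of the KO effect between stages were tested as differences of log2FC. Between days 5 and 7, 2 of 10 genes changed, where 2.83% of all genes were called up and 3.02% down. The effect on Utf1 rose by 2.64 (SE 0.37, FDR 1.91e-09), from -0.64 to 2.0, and that on Tcl1 fell by 2.31 (SE 0.46, FDR 9.76e-05), from 3.43 to 1.11. Both calls held in each of the 12 fits that left out 1 library. From day 7 to iPSCs the effect on 4 of 10 genes fell and on none rose, against 9.76% and 12.1% of all genes. Utf1 fell by 2.2 (SE 0.36, FDR 5.60e-08), Nodal by 2.14 (SE 0.24, FDR 1.15e-16), L1td1 by 1.16 (SE 0.12, FDR 7.43e-19) and Trim71 by 1.03 (SE 0.13, FDR 1.57e-12). Tdgf1 had a similar difference with a wide error (-1.73, SE 0.97, FDR 0.209) and passed with edgeR (FDR 0.0214).

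In iPSC clones none of the genes higher in KO at day 7 was called higher. Called were 2, Lin28a and L1td1, both lower in KO, against 6.63% of all genes lower and 9.72% higher, and neither was a DEG, against 4.51%. Lin28a had 8369, 9522 and 11712 in KO clones and 11481, 12834 and 15856 in WT clones, with overlap (log2FC -0.44, SE 0.11, FDR 7.66e-04). L1td1 had 24393, 22882 and 20485 against 27219, 29705 and 25452, without overlap (log2FC -0.28, SE 0.08, FDR 0.00923). Neither call was made when only the 6 iPSC libraries were fitted (FDR 0.152 and 0.189), and that of L1td1 was lost without iPSC WT replicate 2 (FDR 0.105) or KO replicate 3 (FDR 0.0831). Nodal (1711, 1424 and 1556 against 1228, 1542 and 1675), Utf1, Tdgf1 and Trim71 overlapped. Lefty2 had 2920, 4124 and 4995 in KO and 3561, 863 and 2283 in WT (log2FC 0.84, FDR 0.0962), and was called without iPSC WT replicate 1 (log2FC 1.35, FDR 4.05e-04). Tcl1 had 3992, 4301 and 2432 against 2763, 2018 and 2231 (log2FC 0.61, FDR 0.155), and was called without iPSC KO replicate 3 (log2FC 0.83, FDR 0.0434). Markers of primitive endoderm moved in these clones: 6 of 8 were called higher in KO, and their sum was 2108 to 12313 in KO and 2094 to 2936 in WT with none at 0. Called higher in KO were also 3 of 5 trophectoderm markers (sum 85.1 to 201 against 50.1 to 70.6, with Elf5 at 0 in both), 2 of 4 endothelial ones (2482 to 3387 against 1073 to 1986, with Cdh5 at 0 in WT and 1 marker called lower), 2 of 7 epithelial ones (12474 to 24255 against 10559 to 19873) and 2 of 12 fibroblast ones (335 to 396 against at most 277, with Postn and Prrx1 at 0 in WT). Of 12 pluripotency markers 1 was called higher in KO, Dppa3 (means 521 and 111, log2FC 2.23, FDR 0.00341). Another 1 was called lower, Tdh (means 12766 and 16519, log2FC -0.37, FDR 5.63e-04). The sum of the 12 was 129829 to 137109 in KO and 124668 to 137792 in WT. The part of these markers in the result was not tested.

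In ESCs none of the 10 genes was called by DESeq2 in the fit of all libraries, against 10.1% of all genes, with 2 at an unadjusted p below 0.05 and 0 by edgeR. Even so, groups did not overlap for 5 of 10, against 33.3% of all genes. Lefty1 had 5268, 3902 and 3682 in KO clones and 2612, 2614 and 2773 in the parental line (log2FC 0.68, SE 0.41, FDR 0.314), and Lefty2 4273, 3283 and 3400 against 2178, 2307 and 2317 (log2FC 0.69, SE 0.36, FDR 0.238). Tcl1 had 2856, 3159 and 2778 against 2224, 2190 and 2231 (log2FC 0.4, FDR 0.443), and Lin28a, on the lower side, 11775, 10769 and 11193 against 13199, 13193 and 13634 (log2FC -0.25, FDR 0.126). When only the 6 ESC libraries were fitted, these 4 were called, with FDR 7.06e-08, 3.11e-10, 7.75e-06 and 0.00139. The fifth was Utf1, with 4009, 3728 and 3889 in KO and 4217, 4092 and 4934 in WT (log2FC -0.19, FDR 0.712). The WT ESC group was 1 line sampled 3 times, so its spread does not cover differences between clones. The KO effects on L1td1 in iPSCs and ESCs differed (by -0.47, SE 0.12, FDR 0.0145, against 0.547% of all genes called down), with 23582 ± 2146 in KO and 20754 ± 998 in WT ESCs, but this call was lost with edgeR (FDR 0.146), in the fit of these 12 libraries (FDR 0.143) and without iPSC WT replicate 2 (FDR 0.0581), ESC WT replicate 1 (FDR 0.064) or 2 (FDR 0.0535) or ESC KO replicate 1 (FDR 0.0804).

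The balance of the Lefty genes within a library was also compared. Per kb of exon, Lefty1 over Lefty2 was 9.95 to 21.3 in WT MEFs, where Lefty2 was near the floor, and at day 3 the genotypes overlapped, with 0.22 to 0.375 in WT and 0.167 to 0.295 in KO. At day 5 it was 0.53, 0.631 and 0.804 in WT and 0.203, 0.192 and 0.363 in KO, and at day 7 0.422, 0.36 and 0.702 in WT and 0.189, 0.174 and 0.204 in KO. The groups did not overlap at either day, and an exact two-sided permutation test of 3 against 3 cannot go below p = 0.1. In iPSCs the ratio was 1.71 to 2.18 in WT and 0.944 to 1.55 in KO, again without overlap. In ESCs it was 1.68 to 1.78 and 1.61 to 1.83, with overlap. These ratios were looked at after the values of both genes had been seen, and shared windows of the pair may move reads between them.

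**Figure D4:**
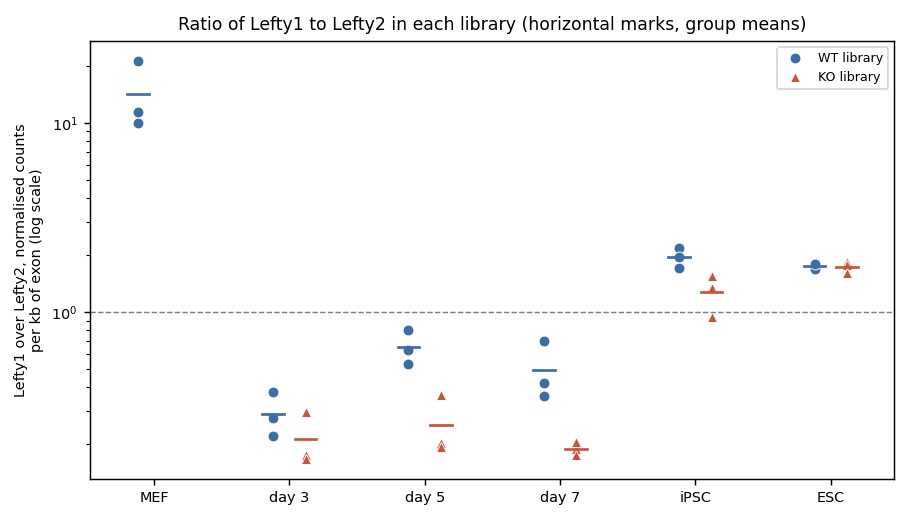
Lefty1 over Lefty2 in normalised counts per kb of exon (log scale) in each library by stage, circles for WT and triangles for KO, with horizontal marks at group means. KO MEFs are left out because a library had no Lefty2 read, and KO libraries lie below all WT libraries at days 5 and 7 and in iPSCs.

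Gdf3 and Foxh1, further genes of the Nodal pathway, were higher in KO cells at days 5 and 7. Of 25 other Nodal pathway genes in the table, 23 were tested at day 5, and 2 were called higher in KO, against 4.72% of all genes, both DEGs. They were Gdf3, a TGF-beta family ligand that also needs the co-receptor (110 ± 40.2 in KO, 39.4 ± 9.75 in WT, log2FC 1.48, FDR 1.40e-07), and Foxh1, the DNA-binding partner of SMAD2 (31.4 ± 8.01 and 6.36 ± 2.91, log2FC 2.29, FDR 6.44e-06). Gdf3 was also the 1 gene of this list called at day 3 (18.4 ± 2.31 and 5.24 ± 5.92, log2FC 1.83, FDR 0.011). At day 7, 5 of 25 were higher and 7 lower, against 13.3% and 16.1% of all genes, with a list median of -0.13 against -0.04 for all genes. Gdf3 (917 ± 131 and 258 ± 48.9, log2FC 1.83) and Foxh1 (331 ± 38.4 and 99.8 ± 29.8, log2FC 1.73) were again higher, and Inhba, which encodes a subunit of activins, was lower (112 ± 18.1 and 275 ± 94.5, log2FC -1.29, FDR 1.56e-04). In iPSCs 5 of 25 were higher and none lower, against 9.72% and 6.63%, and in ESCs 4 of 23 tested were higher and none lower, against 5.82% and 4.29%.

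Of 26 other genes of the let-7 and LIN28 axis (processing enzymes and known let-7 targets), 4 were higher and none lower at day 5, against 4.72% and 2.43% of all genes, and 6 were higher and 5 lower at day 7, against 13.3% and 16.1%, with a median of -0.04, the same as for all genes. The DEGs were Mycn, a Myc family gene, at day 7 (604 ± 86.2 in KO, 215 ± 45.5 in WT, log2FC 1.49, SE 0.23, FDR 6.70e-09) and Hmga2, a chromatin protein gene and let-7 target, in iPSCs (1159 ± 562 and 522 ± 312, log2FC 1.15, SE 0.33, FDR 0.00564). The iPSC counts were 5 higher and 3 lower, against 9.72% and 6.63%, and the ESC counts 3 and 1, against 5.82% and 4.29%. Of 13 other genes of the TCL1 family and the AKT pathway, 2 were higher and 1 lower at day 7, near the 13.3% and 16.1% of all genes. At day 5, 2 were higher, against 4.72%, and 1 was higher in iPSCs and 1 in ESCs, against 9.72% and 5.82%, none of them a DEG.

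Which genes had the most similar course was read from the Pearson r of log2(normalised count + 1) over the 12 group means, among 18425 genes with a mean of at least 10. Such r values are high for any gene that is off in MEFs and on in ESCs, so they are a description of shape. Trim71 was closest to Zfp42 and its pseudogene Zfp42-ps1 (r = 0.998 and 0.997), and Tcl1 to Fgf4 and Gm45752 (0.995 and 0.993). Lin28a was closest to Ccnb1ip1 and Tdh, both 0.998, and Lin28b to Pou5f1 and Glt1d1, both 0.997, where Pou5f1 is a factor of the transgene and its count cannot tell the 2 sources apart. Tdgf1 was closest to its pseudogene Tdgf1-ps1 (0.999), with which it shares 5.99% of its 75-base windows, and to H2-M6-ps (0.996). The others were Utf1 with Rhebl1 (0.994) and Got1 (0.992), Nodal with Cdc45 (0.998) and Gm9788 (0.996), L1td1 with Hdhd5 (0.996), Lefty1 with Vwf (0.995) and Prdm1 (0.981), and Lefty2 with Rasal1 (0.992) and Map7 (0.991). Among the 10 themselves r was highest between Utf1 and Trim71 and between Tdgf1 and Tcl1 (both 0.989), and lowest between Lin28b and Lefty1 (0.334), with 0.699 for the Lefty pair and 0.971 for the Lin28 pair.

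By position (GENCODE M21, GRCm38), Lefty2 lies at chr1:180893108-180899103 and Lefty1 at chr1:180935022-180938400, both on the plus strand with 4 merged exons. Lin28a (chr4:134003330-134018841, minus strand, 7 merged exons) overlaps exons of Gm13061 on the opposite strand, and 4.11% of its windows occur there. Trim71 (chr9:114507133-114564369, minus strand) overlaps exons of C130032M10Rik on the opposite strand in 0.713% of its windows. Whether counting used the strand was not stated, so reads from these overlapping stretches, a small part of each gene, cannot be told apart. Lin28b (chr10:45376620-45486395, minus strand), Utf1 (chr7:139943789-139945112, plus strand), Nodal (chr10:61417972-61425338, plus strand), Tcl1 (chr12:105216750-105222793, minus strand) and L1td1 (chr4:98726734-98738480, plus strand) shared no window with another gene. Tdgf1 lies at chr9:110939603-110946158 on the minus strand.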

How the data were processed

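The authors made whole-number counts of reads per gene (reads trimmed with cutadapt and aligned with STAR to GRCm38.p6, per the labels and the study's methods, with versions not given in the sources used here). The deposited normalised counts, a signal that the authors obtained by dividing counts by DESeq2 size factors, were recomputed to within a relative difference of 4.36e-07. Deposited fold changes, p-values and FDRs of the authors' own comparisons and a log matrix adjusted for library preparation batches were not used, and the labels give no such batches. Whether counting used the strand was not stated.

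Counts of 21442 genes in 36 libraries were fitted with DESeq2 1.42.0 (R 4.3.3, Wald test, 12 groups of 3, median-ratio size factors, no shrinkage). In each comparison p-values were adjusted by the Benjamini-Hochberg method over the genes left by the default independent and outlier filtering. Total counts per library, 19224103 to 39610939, set the precision. A called gene had FDR below 0.05, and a DEG also a log2FC beyond 1. The alternatives were edgeR 4.0.16 (quasi-likelihood), TMM size factors, 21384 genes with at least 10 counts in 3 libraries, only the groups compared, a replicate block, no independent or outlier filtering, and each library left out. The scripts were tested on simulated data. Values per kb used merged exons of GENCODE M21, which held 21390 of the gene IDs. The named genes were the 10 members, the DEGs of the fixed pathway lists and the 2 genes most alike to each member. A few of these are not reported here. The members and lists were chosen with earlier results of these data known.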

Additional observations from a re-analysis of the deposited data

Results flagged for a closer look

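Several effects of the KO differed between stages by a test of the difference itself (DESeq2 interaction, FDR below 0.05), given as the difference of log2FC. From day 5 to day 7 the effect on Utf1 differed by 2.64 and that on Tcl1 by -2.31. From day 7 to iPSCs the effect differed by -2.2 for Utf1, -2.14 for Nodal, -1.03 for Trim71 and -1.16 for L1td1. Between iPSCs and ESCs it differed by -0.47 for L1td1, the 1 of these calls that edgeR did not make. Neighbouring comparisons share the day 7 or iPSC libraries, so they are not independent of each other.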

How the results depend on the processing

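Counts of the 10 genes called changed by over 1.5 times in these cases. At day 3 the count of KO against WT was 1 and became 0 with edgeR and 0 to 1 with 1 library left out. At day 5 it was 5, and 3 to 5 with 1 library left out, with 3 without KO replicate 2. In iPSCs it was 2, 0 with only the groups compared and 1 to 3 with 1 library left out, with 1 without WT replicate 2. In ESCs it was 0, and 4 with only the groups compared. Between WT ESCs and iPSCs it was 1, and 0 with edgeR or only the groups compared. For the KO effect at day 7 against day 5 it was 2, 5 with only the groups compared and 2 to 4 with 1 library left out, with 4 without day 5 KO replicate 2. For the KO effect in iPSCs against ESCs it was 1, 0 with edgeR or only the groups compared and 0 to 1 with 1 library left out. The cause of these changes was not tested. Fits of only the groups compared, or with 1 library left out, also hold fewer libraries.

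Replicate numbers are shared between groups, but the labels do not say that a number marks a shared culture. The correlation of same-numbered KO and WT libraries was 0.0593 to 0.167 at day 5, 0.0838 to 0.23 at day 7 and 0.0752 to 0.287 at day 3, so not every pair passed 0.1, although every library correlated best with its own number at days 5 and 7. These are not correlations of the expression levels themselves, which were alike in libraries of a stage. Between libraries of unlike number the highest value was 0.00702 at day 5, -0.0119 at day 7 and 0.076 at day 3. With the replicate block the count at day 7 was 5, as Tcl1 had FDR 0.0533 (log2FC 1.1), and no other count changed. With the block and only the groups compared, an alternative chosen after seeing the data, the count at day 5 was 8, Lefty1, Utf1, Lin28a and Lefty2 being added and Nodal having no FDR. In that fit at day 7 Lefty2 was called (log2FC 0.91, FDR 1.5e-31), for a count of 7.

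The sign turned in some fits for differences that were not called. With 1 library left out, the log2FC of KO against WT in MEFs ran from -1.09 to 0.03 for Tdgf1, -0.04 to 0.32 for Lefty1, -1.34 to 0.06 for Lefty2 and -0.08 to 0.94 for L1td1. At day 3 it ran from -0.2 to 0.04 for Lin28b, -0.47 to 2.28 for Tdgf1 and -0.14 to 0.03 for Trim71, at day 7 from -0.06 to 0.1 for Lin28b and -0.97 to 0.09 for Lefty1, and in iPSCs from -0.3 to 0.07 for Lin28b and -0.04 to 0.18 for Nodal. In WT cells it ran from -0.27 to 0.01 for Lin28b and -0.32 to 0.16 for Utf1 between days 3 and 5, from -0.05 to 0.19 for Lin28b between days 5 and 7 (-0.01 with edgeR and with TMM) and from -0.57 to 0.32 for Lefty2 between day 7 and iPSCs. Between WT iPSCs and ESCs it ran from -0.1 to 0.13 for Lin28a, -0.02 to 0.21 for Tdgf1, -0.41 to 0.33 for Lefty1, -0.37 to 0.53 for Lefty2, -0.01 to 0.21 for Nodal and -0.17 to 0.06 for Tcl1. For the KO effect it ran from -0.83 to 0.25 for Tdgf1 between days 5 and 7. From day 7 to iPSCs it ran from -0.32 to 0.04 for Lin28b and -0.38 to 0.52 for Lefty2 (-0.04 with edgeR and with TMM, -0.01 with only the groups compared). Between ESCs and iPSCs it ran from -0.1 to 0.14 for Utf1, -0.05 to 0.18 for Tdgf1, -0.68 to 0.08 for Lefty1 and -0.23 to 0.66 for Lefty2. Of 1785 recomputed values 1662 kept their direction and side of the threshold, or their count within 1.5 times.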
